A study of Rattus norvegicus with 325 samples.

Results

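Macrophages in skeletal muscle were followed through 8 marker genes: Csf1r, Itgam, Adgre1, Cd163, Mrc1, Cd68, Lyz2 and Aif1. The genes were listed by name, with earlier results of these data known, and all 8 were found among the 17315 gene symbols of the deposited count tables. RNA-seq of total RNA had been performed on 4 muscles (diaphragm, gastrocnemius, soleus and tibialis anterior) of male Sprague Dawley rats at 7 ages: 6, 9 and 12 months, then 18 and 21, and last 24 and 27 months. This gave 83, 73, 84 and 85 libraries of these muscles, in 28 groups of 9 to 13. The labels name no treatment and no altered allele, so the groups differ in muscle and age, within 1 sex and 1 outbred strain. Each age was collected on its own day, so age and collection day cannot be told apart. The labels do not state which libraries came from the same animal, and the p-values below therefore measure the spread between these libraries. The libraries held between 17.6 M and 85.3 M counts, and their median was 31.9 M. Myh4, the fast type 2B myosin, had a median of 87431.7 CPM (counts-per-million) in tibialis anterior and 8.39 CPM in soleus at 6 months, as the muscle labels imply.

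Macrophages are phagocytes that develop from embryonic precursors or from blood monocytes and live between muscle fibres, in the perimysium and around vessels. In muscle they clear debris, take up iron and lipid, present antigen and release factors that act on satellite cells and fibro-adipogenic cells, and they gather around injured or denervated fibres. Their survival depends on signals through the Csf1 receptor, and the transcription factor PU.1, encoded by Spi1, drives many of their genes. None of the 8 markers is entirely private to macrophages: Itgam is also carried by neutrophils and monocytes, Lyz2 by other myeloid cells, and Mrc1 by some endothelial cells.

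The promoters of 4 markers are shown because they differ in a short motif bound by PU.1, while the genes themselves moved together in most groups described below. Promoter sequences (250 bases before to 50 bases after the gene start, RefSeq, build GRCr8) were matched by symbol for 7 of the 8 genes, Aif1 being without an entry. The letters GAGGAA, searched on both strands, were present in 6 of these 7 promoters, against 27.6% of all 33469 rat promoters of the same length. Cd163 was the one without a match. Capitals mark GAGGAA or its reverse complement TTCCTC, and all sequences run 5′ to 3′ on the strand of the gene. Cd68 lies at chr10:54882392-54882691 (minus strand), Itgam at chr1:192089342-192089641 (plus strand), Mrc1 at chr17:82157475-82157774 (plus strand) and Cd163 at chr4:158770524-158770823 (plus strand).
Cd68: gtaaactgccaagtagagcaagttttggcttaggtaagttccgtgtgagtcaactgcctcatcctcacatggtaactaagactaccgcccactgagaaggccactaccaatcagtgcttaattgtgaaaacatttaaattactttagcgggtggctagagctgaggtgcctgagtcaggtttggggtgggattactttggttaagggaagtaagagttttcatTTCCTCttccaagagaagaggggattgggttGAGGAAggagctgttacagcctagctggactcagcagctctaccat
Itgam: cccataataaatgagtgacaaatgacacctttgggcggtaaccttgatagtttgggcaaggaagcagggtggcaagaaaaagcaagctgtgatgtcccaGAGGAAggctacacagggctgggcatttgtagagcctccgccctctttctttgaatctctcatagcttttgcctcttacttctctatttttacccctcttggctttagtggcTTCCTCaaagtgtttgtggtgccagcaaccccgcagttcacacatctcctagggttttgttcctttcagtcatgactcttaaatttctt
Mrc1: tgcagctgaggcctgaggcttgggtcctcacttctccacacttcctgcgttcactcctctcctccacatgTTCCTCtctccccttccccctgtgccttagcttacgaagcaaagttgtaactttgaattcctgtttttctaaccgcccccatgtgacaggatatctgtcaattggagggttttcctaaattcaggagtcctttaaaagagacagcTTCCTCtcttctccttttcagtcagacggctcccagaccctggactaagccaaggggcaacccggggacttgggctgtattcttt
Cd163: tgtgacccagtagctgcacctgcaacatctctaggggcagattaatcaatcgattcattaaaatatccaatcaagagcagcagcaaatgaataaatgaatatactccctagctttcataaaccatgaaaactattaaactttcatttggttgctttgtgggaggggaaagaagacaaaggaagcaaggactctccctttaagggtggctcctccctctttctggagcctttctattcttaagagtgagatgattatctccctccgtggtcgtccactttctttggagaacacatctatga
The first match in Itgam began 151 bases and the second 39 bases before the gene start, and those of Mrc1 began 180 and 35 bases before it. In Cd68, 1 match began 27 bases before the start and the other lay 5 bases after it. The longer form GAGGAAGT, which contains GAGGAA, was in 0 of 7 promoters and in 2.42% of all promoters. A match to TTNNGNAA, a pattern of C/EBP factors, was present in 7 of 7 promoters and in 41.3% of all promoters. TATAAA was in 0 of 7 and in 14.2% of all promoters, TGANTCA, a pattern of AP-1, in 1 of 7 and in 7.33%, and the short Ets core GGAA, which GAGGAA contains, in 7 of 7 and in 95.8%. These matches describe letters in the sequence and do not show that any factor was bound.

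Levels are given as CPM after TMM scaling over all libraries, and changes as log2 differences from 6 months with their standard error (SE), from a limma-voom fit of all genes of that muscle. A gene was called when its Benjamini-Hochberg adjusted p over all genes tested was under 0.05 and its change was over 1.5-fold. Shares of all genes called follow this rule. Marker counts at an unadjusted p under 0.05 follow a looser rule. The share of all genes passing that looser rule is not given. CPM does not account for transcript length, so levels are compared between groups and not between genes. In RNA from whole tissue, a larger number of macrophages and more of a transcript per macrophage cannot be told apart. Every marker was counted in every library, and the lowest values were those of Aif1.

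**Figure D1:**
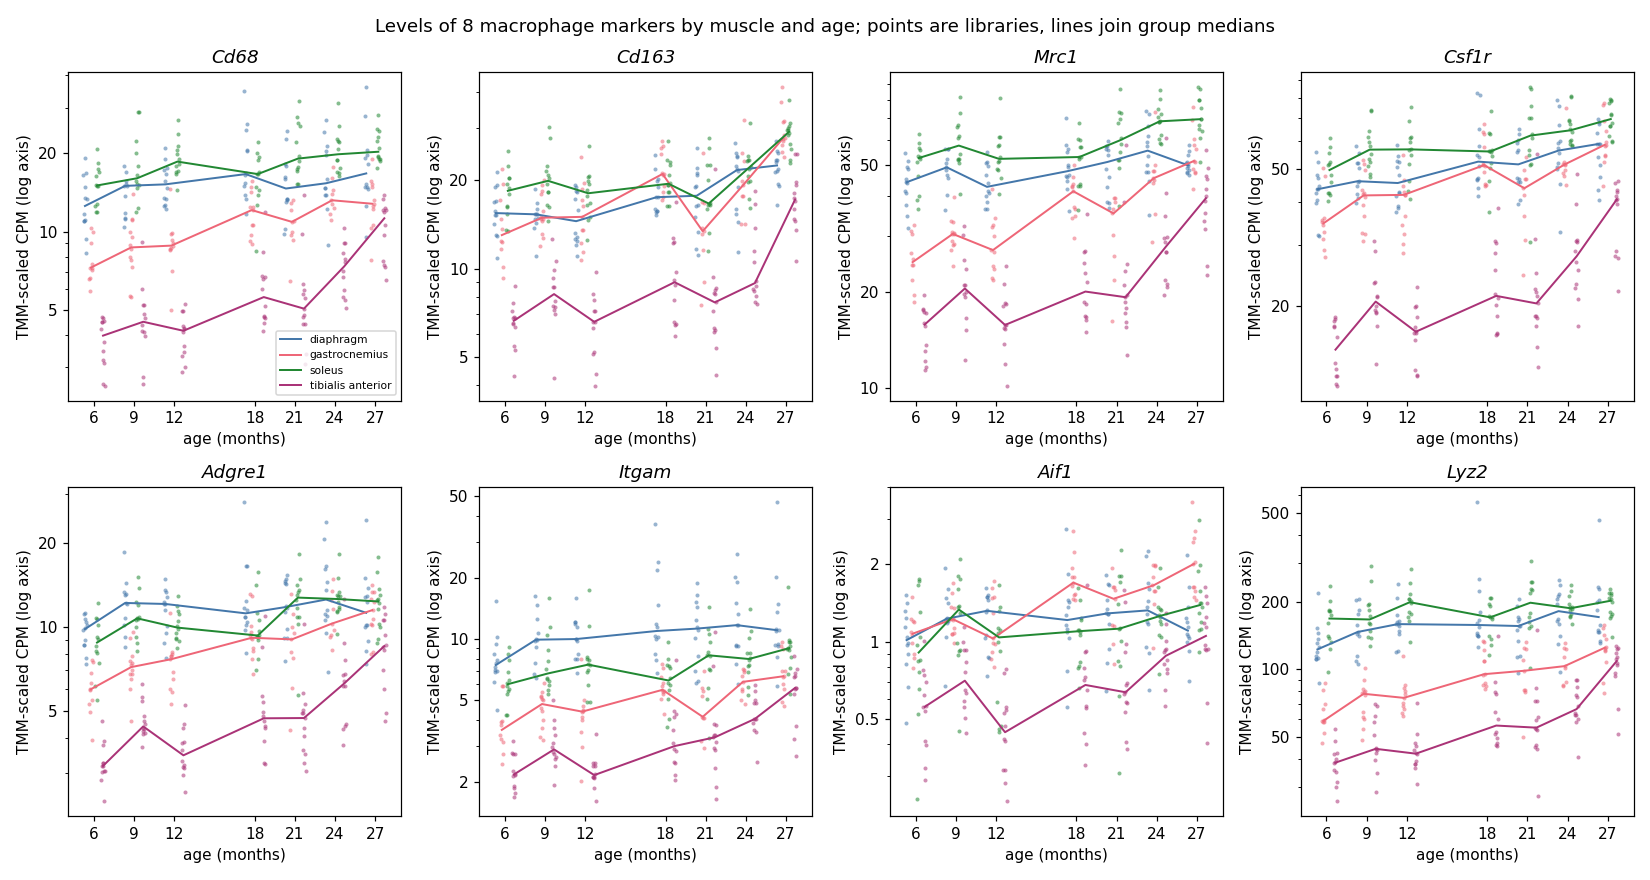
TMM-scaled CPM (log axis) of the 8 markers against age in months. Each point is 1 library, coloured by muscle, and lines join the group medians. Tibialis anterior lay below the other muscles at 6 months for all 8 genes, and its Cd163 median went from 6.64 CPM at 6 months to 17.2 CPM at 27 months.

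Young muscles differed in the level of these markers, and tibialis anterior had the least. At 6 months all 8 genes were called lower in tibialis anterior than in diaphragm, where 35.1% of the 12784 genes tested were called in either direction. The same held against gastrocnemius (8 of 8, 17.3% of all genes called) and against soleus (8 of 8, 42.9% of all genes called). Median differences of the 8 genes were -1.51 against diaphragm, -0.90 against gastrocnemius and -1.58 against soleus on the log2 scale. Lyz2, which encodes lysozyme, showed the contrast well. Its level at 6 months was 25.9 to 54.1 CPM (median 38.4, n = 12) in tibialis anterior, 47.2 to 87.4 CPM (median 59.0, n = 10) in gastrocnemius, 86.7 to 219.4 CPM (median 122.9, n = 12) in diaphragm and 97.2 to 235.0 CPM (median 168.8, n = 12) in soleus. The libraries of tibialis anterior did not overlap those of diaphragm or soleus and overlapped those of gastrocnemius in part. The difference between tibialis anterior and soleus was -2.07 ± 0.15 (SE; adjusted p = 7.9e-33).

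Soleus and diaphragm were neighbours at the top of this order. In soleus against diaphragm, 0 of 8 genes were called by limma-voom and 0 by edgeR, 1 had an unadjusted p under 0.05, and 23.9% of all genes were called. Their differences ran from -0.31 ± 0.19 for Itgam to 0.31 ± 0.15 for Lyz2 (adjusted p = 0.14 and 0.0522). Gastrocnemius lay below diaphragm for 5 of 8 genes (37.3% of all genes called), namely Lyz2, Itgam, Mrc1, Cd68 and Adgre1, with differences from -1.02 ± 0.15 to -0.66 ± 0.16. It also lay below soleus for 4 of 8 (45.4% of all genes called): Lyz2, Cd68, Mrc1 and Itgam. Cd163, Csf1r and Aif1 were not called between gastrocnemius and either of these 2 muscles. Aif1 was the exception to the order, with 1.07 CPM as its median in gastrocnemius, 1.01 in diaphragm and 0.908 in soleus, and its differences of 0.12 (gastrocnemius minus diaphragm) and -0.20 (soleus minus gastrocnemius) took the opposite sign under total-count scaling, -0.33 and 0.21. The gastrocnemius libraries carry a number series of their own in the labels, so a difference between gastrocnemius and another muscle cannot be told apart from a difference between those series.

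Tibialis anterior had the largest median change of the 4 muscles. At 27 months 8 of 8 markers were called higher and 0 lower, beside 17.2% of the 11754 genes tested called higher and 10.4% called lower. The median change of the 8 genes was 1.33 (log2) and that of all genes tested was 0.02. Csf1r, the receptor through which macrophages receive Csf1 and Il34, went from 11.8 to 18.6 CPM (median 15, n = 12) at 6 months to 22.1 to 46.1 CPM (median 40.8, n = 12) at 27 months. No old library overlapped the young ones. The change was 1.28 ± 0.15 (2.43-fold, adjusted p = 3.0e-12). Itgam, the alpha chain of complement receptor 3, had 1.69 to 3.15 CPM (median 2.17) at 6 months and 2.67 to 8.3 CPM (median 5.77) at 27 months. Here 11 of 12 old libraries lay above the highest young one, and the change was 1.31 ± 0.19 (adjusted p = 5.8e-09). Adgre1, which encodes the F4/80 antigen, had 2.39 to 4.63 CPM (median 3.19) and then 4.6 to 11.8 CPM (median 8.55), again with 11 of 12 old libraries above the highest young one, and rose by 1.34 ± 0.17 (adjusted p = 2.9e-11).

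The scavenger receptors of tibialis anterior rose as well. Cd163, the receptor for haemoglobin bound to haptoglobin, had 4.32 to 8.69 CPM (median 6.64) at 6 months and 10.6 to 24.5 CPM (median 17.2) at 27 months. The groups did not overlap, and the change was 1.42 ± 0.16 (2.68-fold, adjusted p = 2.0e-12). Mrc1, the mannose receptor, had 11.4 to 19.6 CPM (median 15.9) at 6 months and 22.7 to 55.7 CPM (median 39.4) at 27 months. These groups were separate too, with a change of 1.32 ± 0.17 (2.50-fold, adjusted p = 5.4e-11).

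Among the lysosomal and cytoplasmic markers of tibialis anterior, Cd68, a glycoprotein of late endosomes and lysosomes, had 2.55 to 4.7 CPM (median 3.98) at 6 months and 6.5 to 13.8 CPM (median 11.2) at 27 months. The groups did not overlap, and Cd68 had the largest change of the 8 genes in this muscle, 1.44 ± 0.17 (2.70-fold, adjusted p = 4.0e-12). Lyz2 went to 51.6 to 126.7 CPM (median 109.1) at 27 months, with 11 of 12 libraries above the highest young library and a change of 1.41 ± 0.16 (adjusted p = 3.2e-12). Aif1, a calcium-binding protein of the actin cytoskeleton also known as Iba1, had the smallest change, 0.92 ± 0.21 (1.89-fold, adjusted p = 6.4e-05). Its levels were 0.29 to 1.01 CPM (median 0.558) at 6 months and 0.403 to 1.63 CPM (median 1.05) at 27 months, and only 6 of 12 old libraries exceeded the highest young one. In all, 4 of the 8 genes had every 27-month library above every 6-month library, beside 8.91% of all genes tested. Even so, the 27-month medians of tibialis anterior for Csf1r and Mrc1 (40.8 and 39.4 CPM) stayed below the 6-month medians of diaphragm (43.6 and 44.2 CPM). The same held for Cd68, Adgre1, Itgam and Lyz2. For Cd163 (17.2 against 15.4 CPM) and Aif1 (1.05 against 1.01 CPM) the old tibialis anterior median lay above that of young diaphragm.

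**Figure D2:**
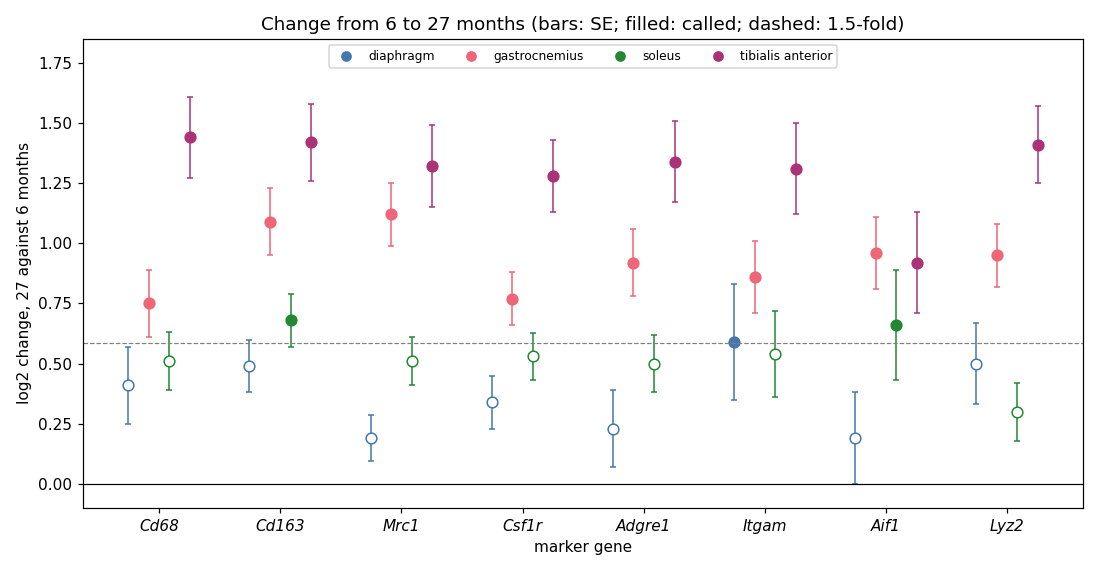
Log2 change from 6 to 27 months of each marker (x axis), coloured by muscle, with bars for the standard error, filled points for called genes and a dashed line at 1.5-fold. All 8 points of tibialis anterior and of gastrocnemius are filled, against 2 in soleus and 1 in diaphragm.

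In gastrocnemius the same 8 of 8 markers were called higher at 27 months and 0 lower, where 15.1% of the 11865 genes tested were called higher and 7.76% lower. The median change was 0.93, and 0.04 over all genes tested. The largest values belonged to the scavenger receptors. Mrc1 had 18.7 to 32.4 CPM (median 24.9, n = 10) at 6 months and 42.2 to 75.9 CPM (median 51.5, n = 11) at 27 months, a change of 1.12 ± 0.13 (2.18-fold, adjusted p = 6.2e-12). Cd163 had 9.31 to 21.9 CPM (median 13) and then 24.0 to 41.6 CPM (median 27.8), a change of 1.09 ± 0.14 (2.13-fold, adjusted p = 6.1e-10). Neither gene had an old library within the young range, and Adgre1 was the third without overlap, with 3.94 to 7.64 CPM (median 6.0) at 6 months and 8.01 to 14.2 CPM (median 11.5) at 27 months. Adgre1 rose by 0.92 ± 0.14 (adjusted p = 2.9e-08). These 3 of 8 genes stand beside 6.53% of all genes tested with groups that did not overlap.

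Csf1r had 27.7 to 50.1 CPM (median 34.8) in young and 44.6 to 77.2 CPM (median 58.6) in old gastrocnemius, and Cd68 had 5.9 to 10.3 CPM (median 7.27) and 7.76 to 19.0 CPM (median 12.8). In each gene 10 of 11 old libraries exceeded the highest young one, and the changes were the smallest of the 8, 0.77 ± 0.11 for Csf1r and 0.75 ± 0.14 for Cd68 (adjusted p = 1.2e-08 and 5.5e-06). Lyz2 reached 78.7 to 157.2 CPM (median 125.0), a change of 0.95 ± 0.13. Itgam went from a median of 3.59 to 6.57 CPM (0.86 ± 0.15) and Aif1 from 1.07 to 2.01 CPM (0.96 ± 0.15). The changes of Itgam, Aif1 and Lyz2 had adjusted p-values of 1.1e-06, 1.0e-07 and 2.7e-09, with 8, 9 and 9 of 11 old libraries above the highest young one.

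In soleus the changes were smaller. At 27 months 2 of 8 markers, Cd163 and Aif1, were called higher and 0 lower, beside 9.21% of the 12175 genes tested called higher and 5.78% lower. All 8 had an adjusted p under 0.05, but 6 of them changed by less than 1.5-fold. The median change was 0.52, and 0.02 over all genes tested. Cd163 had 13.4 to 25.2 CPM (median 18.4, n = 12) at 6 months and 22.9 to 37.5 CPM (median 29.3, n = 12) at 27 months. Of the old libraries, 10 of 12 lay above the highest young one, and the change was 0.68 ± 0.11 (1.60-fold, adjusted p = 9.8e-08). Aif1 rose by 0.66 ± 0.23 (adjusted p = 0.0104), from 0.244 to 1.75 CPM (median 0.908) to 0.913 to 2.98 CPM (median 1.39), and the groups overlapped widely. This call rested on single libraries: without replicate 3 of 27 months the change was 0.55, and without replicate 0 of 6 months it was 0.50, both under 1.5-fold. Lyz2 had the smallest difference, 0.30 ± 0.12 (1.23-fold, adjusted p = 0.0352), with 97.2 to 235.0 CPM at 6 months and 139.2 to 228.7 CPM (median 202.7) at 27 months, and no old library exceeded the highest young one. For Csf1r, Mrc1, Cd68, Adgre1 and Itgam the differences were 0.50 to 0.54. No marker of soleus had groups without overlap, beside 2.23% of all genes tested. Under total-count scaling, which moved the median of all genes of soleus to 0.164, 7 of 8 markers were called.

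In diaphragm 1 of 8 markers, Itgam, was called higher at 27 months and 0 lower, beside 3.27% of the 12035 genes tested called higher and 4.25% lower. The median change was 0.38 and that of all genes tested was 0.0. Itgam had 4.5 to 15.4 CPM (median 7.46, n = 12) at 6 months and 5.92 to 46.9 CPM (median 11, n = 12) at 27 months. The groups overlapped almost fully, with 2 of 12 old libraries above the highest young one, and the change of 0.59 ± 0.24 (1.51-fold, adjusted p = 0.035) lay just past the threshold. The call was lost when any 1 of 10 libraries among 24 was left out: replicates 2, 6, 7 and 8 of 27 months and replicates 1, 2, 3, 4, 8 and 10 of 6 months. Without replicate 6 of 27 months, which held the 46.9 CPM, the change was 0.44 (adjusted p = 0.101). That library was also the highest of its group for Cd68 (36.1 CPM), Adgre1 (24.2 CPM) and Lyz2 (462.6 CPM) and the lowest for Cd163 (16.5 CPM).

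Cd163 was the marker of diaphragm with the smallest adjusted p, yet it stayed under 1.5-fold. It had 10.9 to 21.4 CPM (median 15.4) at 6 months and 16.5 to 27.1 CPM (median 22.5) at 27 months, with 9 of 12 old libraries above the highest young one and a difference of 0.49 ± 0.11 (1.40-fold, adjusted p = 0.000214). Cd68, Csf1r and Lyz2 had differences of 0.41 ± 0.16, 0.34 ± 0.11 and 0.50 ± 0.17 (adjusted p = 0.0304, 0.00608 and 0.0101), also under 1.5-fold. Mrc1, Adgre1 and Aif1 had differences of 0.19 to 0.23 that were not past the p threshold. No marker of diaphragm had groups without overlap, beside 1.27% of all genes tested.

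The difference between muscles was tested directly, as the difference between their changes from 6 to 27 months in 1 fit of all libraries (12784 genes). Tibialis anterior changed more than diaphragm in 7 of 8 markers (20.3% of all genes called in either direction). The differences ran from 0.69 ± 0.30 for Aif1 to 1.09 ± 0.18 for Mrc1 (adjusted p = 0.0482 and 3.8e-08), and the 8th gene, Itgam, differed by 0.67 ± 0.32 (adjusted p = 0.0697). Against soleus it also changed more in 7 of 8 (15.8% of all genes called), with Lyz2 at the top, 1.12 ± 0.21 (adjusted p = 2.0e-06), and Aif1 not called, 0.27 ± 0.30 (adjusted p = 0.506). Tibialis anterior changed more than gastrocnemius in 1 of 8, Cd68 (0.68 ± 0.26, adjusted p = 0.0344; 7.32% of all genes called), and the other 7 differences ran from -0.03 ± 0.30 for Aif1 to 0.52 ± 0.18 for Csf1r.

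Gastrocnemius changed more than diaphragm in 3 of 8 markers (21.6% of all genes called), Mrc1 by 0.88 ± 0.18, Aif1 by 0.72 ± 0.26 and Adgre1 by 0.63 ± 0.21. Soleus changed less than gastrocnemius in 2 of 8 (14.5% of all genes called), Lyz2 by -0.66 ± 0.22 and Mrc1 by -0.61 ± 0.18. Between soleus and diaphragm 0 of 8 were called by limma-voom and 0 by edgeR, 0 had an unadjusted p under 0.05, and 11.9% of all genes were called. The widest of these 8 differences was 0.42 ± 0.26 for Aif1.

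**Figure D3:**
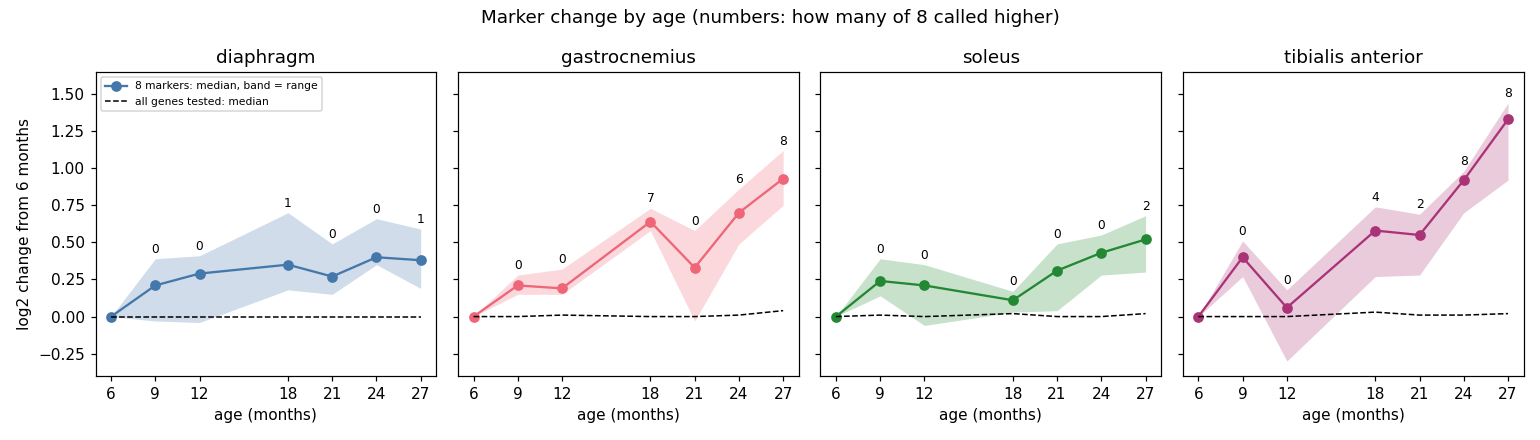
Median log2 change of the 8 markers from 6 months (points and line) with their lowest and highest value (band), by age in months and muscle. The dashed line is the median of all genes tested and the numbers give how many of the 8 were called higher. Tibialis anterior reached a median of 1.33 at 27 months and gastrocnemius 0.93, while diaphragm stayed at 0.40 or below.

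Across the ages, no marker was called at 9 or 12 months in any muscle by limma-voom, edgeR or DESeq2. At 9 months 0.0748%, 0.101%, 0.0493% and 0.00851% of all genes were called higher in diaphragm, gastrocnemius, soleus and tibialis anterior. In the same order, 1, 1, 3 and 4 of the 8 genes passed the looser rule of an unadjusted p under 0.05. At 12 months 0.307%, 0.489%, 0.23% and 0.145% of all genes were called higher, and 1, 2, 2 and 0 of the 8 passed the looser rule. These counts and shares follow unlike rules and cannot be compared. The 12-month libraries of diaphragm, soleus and tibialis anterior bear a number series that these muscles share otherwise only with 1 library each at 21 months, so that age cannot be told apart from the series there.

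The first calls came at 18 months. In gastrocnemius 7 of 8 markers were called (3.63% of all genes), with changes from 0.62 for Cd68 and Cd163 to 0.73 for Aif1, and the 8th, Csf1r, had 0.58 ± 0.11 (1.49-fold, adjusted p = 0.00016). In tibialis anterior 4 of 8 were called (4.11% of all genes): Lyz2, Cd68, Adgre1 and Csf1r, with changes of 0.61 to 0.74. These calls leaned on 1 library. Replicate 11 had the highest value of its group for all 8 genes, for example 140.6 CPM of Lyz2 where the median was 56.2, and without it 1 of 8 (Lyz2, 0.64) was called. In diaphragm Itgam was called (0.70 ± 0.23, adjusted p = 0.0203; 1.62% of all genes). Replicate 0 there was the highest for all 8 markers, at 36.6 CPM of Itgam against a median of 11, and without it Itgam changed by 0.60 (adjusted p = 0.0434). In soleus 0 of 8 were called by limma-voom, edgeR or DESeq2 (1.66% of all genes), 0 had an unadjusted p under 0.05 and the median difference was 0.11.

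At 21 months the values were lower again in gastrocnemius. There 0 of 8 were called by limma-voom and 1 by edgeR and by DESeq2, 5 had an unadjusted p under 0.05, and 4.27% of all genes were called. The median difference was 0.33, against 0.64 at 18 months. Replicate 0 had the lowest mean of the group, and without it 2 of 8, Lyz2 (0.69) and Adgre1 (0.62), were called. In tibialis anterior 2 of 8, Itgam (0.69) and Lyz2 (0.65), were called at 21 months (5.5% of all genes). Replicate 7 held 57.8 CPM of Mrc1 and 21.9 CPM of Cd163, against group medians of 19.3 and 7.67, and without it 0 of 8 were called, although all 8 differences stayed positive, from 0.16 to 0.57. In diaphragm and soleus 0 of 8 were called by limma-voom, edgeR or DESeq2 at 21 months (1.12% and 1.41% of all genes), with 2 and 5 unadjusted p-values under 0.05.

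At 24 months all 8 of tibialis anterior (10.9% of all genes) and 6 of 8 of gastrocnemius (11.4% of all genes) were called. In tibialis anterior the changes were 0.70 for Aif1 to 0.98 for Adgre1. In gastrocnemius Adgre1 (0.86), Mrc1 (0.84) and Cd68 (0.83) led, and Cd163 (0.49 ± 0.15) and Csf1r (0.55 ± 0.12) stayed under 1.5-fold. In diaphragm 0 of 8 were called by limma-voom (2.19% of all genes), 1 by edgeR and by DESeq2, and 8 had an unadjusted p under 0.05. Without its replicate 11, the lowest of the group on average, Itgam was called there (0.76, adjusted p = 0.0253). In soleus 0 of 8 were called by limma-voom, edgeR or DESeq2 at 24 months (3.87% of all genes), and 7 had an unadjusted p under 0.05.

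The shape of these courses was described by comparing a constant, a line and a logistic step by their Bayesian information criterion (BIC). Age-related genes were those called at some age and better described by a trend than by the constant. All 8 markers were age-related and rising in tibialis anterior (16.4% of all genes) and in gastrocnemius (14.4% of all genes). In both muscles 7 of 8 were linear, with slopes of 0.456 to 0.715 log2 per 12 months in tibialis anterior and of 0.37 to 0.546 in gastrocnemius. The shares of all genes pool linear and logistic courses. No share of all genes with a linear course is given, so these counts by class only describe the markers. Cd68 had the steepest line in tibialis anterior and Mrc1 in gastrocnemius. In soleus 1 of 8, Cd163, was age-related and rising (7.45% of all genes), and in diaphragm 0 of 8 (3.01% of all genes). A rising line was also preferred for Cd68, Mrc1, Csf1r and Adgre1 in soleus and for Cd163 and Csf1r in diaphragm. These genes were called at no age in those muscles and so did not count as age-related.

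Cd163 was the marker whose course was described by a late step, and the share of all genes with such a step is not given. The logistic form was preferred in gastrocnemius, soleus and tibialis anterior, with inflections at 24.25, 24.25 and 25.25 months, between the last 2 ages sampled. No age in between was sampled, so the place of the step there is only loosely set. With 9 libraries a group, the inflection in tibialis anterior was at 27.0 months, the last age. No other marker had a logistic course in any muscle with TMM scaling, but under total-count scaling Mrc1 had one too, in soleus (inflection at 22.25 months) and in tibialis anterior (25.25 months). In tibialis anterior the median of Cd163 was 6.64 CPM at 6 months, 8.98 at 18, 7.67 at 21, 8.93 at 24 and 17.2 at 27. In gastrocnemius it was 13, 21.0, 13.4, 19.2 and 27.8 CPM at the same ages, and in soleus 18.4, 19.5, 16.7, 22.0 and 29.3 CPM. All 3 muscles thus had their highest median at 27 months, and all 3 were lower at 21 than at 18 months.

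**Figure D4:**
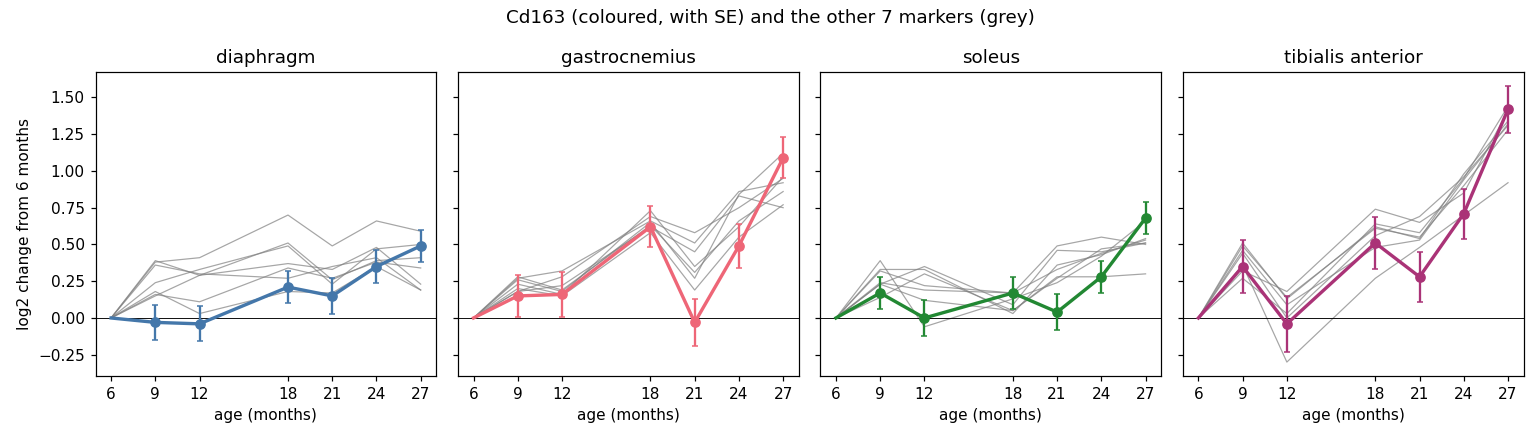
Log2 change from 6 months of Cd163 (coloured line with standard errors) and of the other 7 markers (grey lines) by age in months, in each muscle. In gastrocnemius Cd163 was at -0.03 at 21 months, below the other markers, and at 1.09 at 27 months.

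The last step, 27 against 24 months, was tested in the same fits. Cd163 was the only 1 of the 8 called, in tibialis anterior (0.72 ± 0.14, 1.64-fold, adjusted p = 4.1e-05) and in gastrocnemius (0.60 ± 0.14, 1.52-fold, adjusted p = 0.0113). Of all genes, 4.17% and 0.548% were called higher at this step in these muscles. The call in gastrocnemius was at the edge of the threshold and was not made by edgeR (0 of 8). In soleus Cd163 differed by 0.39 ± 0.11 (adjusted p = 0.00212), under 1.5-fold, and 0 of 8 were called by limma-voom or edgeR, with 1 unadjusted p under 0.05 (2.97% of all genes). In diaphragm the difference was 0.14 ± 0.11, 0 of 8 were called by limma-voom or edgeR and 0 had an unadjusted p under 0.05 (0.872% of all genes). Other markers moved less over this step: in tibialis anterior Lyz2 (0.56 ± 0.16) and Cd68 (0.48 ± 0.14) came next, both with adjusted p under 0.05 and under 1.5-fold, and in gastrocnemius Cd68 had -0.07 ± 0.14. The log2 ratio of Cd163 to Cd68 within a library was 0.85 ± 0.34 (SD, n = 10) at 6 months, 0.54 ± 0.28 (n = 9) at 24 months and 1.20 ± 0.27 (n = 11) at 27 months in gastrocnemius. In tibialis anterior it was 0.78 ± 0.27, 0.52 ± 0.38 and 0.76 ± 0.32 (SD, n = 12 each), so that the ratio there was lower at 24 months and at 27 months was close to that at 6.

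The 8 markers moved together. Over the 28 group means of log2 CPM, the pairwise Pearson correlation was 0.61 to 0.984 with a median of 0.912, over points that share muscle and age. Within muscles, after subtracting each group's mean, the median correlation over the 28 pairs was 0.619 in diaphragm (83 libraries), 0.661 in gastrocnemius (73), 0.677 in soleus (84) and 0.766 in tibialis anterior (85). These points share a library and its scaling. Aif1, the gene with the fewest counts, had the lowest median correlation with the other markers in gastrocnemius (0.413), soleus (0.469) and tibialis anterior (0.591). In diaphragm it was Cd163 that had the lowest, 0.467.

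Genes outside the list that followed the same course were looked for among 10411 genes, by the correlation with the mean of the 8 markers over the 28 group means. The 10 most alike were Cybb, Cd4, Pld4, C5ar1, Clec10a, Nckap1l, Cd300le, C1qc, Folr2 and Cd83, with r from 0.978 to 0.993. Cybb encodes the large subunit of the phagocyte oxidase, C5ar1 the receptor for complement C5a and C1qc a chain of complement C1q. Cd4, the helper T cell coreceptor, is also carried by rat monocytes and macrophages. By single marker, the nearest gene was Tyrobp for Cd68 (r = 0.988), C1qb for Cd163 (0.984), Ms4a6bl for Mrc1 (0.989), C1qc for Csf1r (0.994), Cybb for Adgre1 (0.983), Itgb2 for Itgam (0.99), RT1-Da for Aif1 (0.931) and Fcer1g for Lyz2 (0.987). Itgb2 encodes the beta chain that pairs with the product of Itgam. Among other lysozyme genes listed, Lyc2 had 12993 counts over all libraries against 1428609 for Lyz2, and Lyzl1, Lyzl4 and Lyzl6 had 4, 1 and 17. Reads shared between such similar genes could have been assigned to either.

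Lists of other macrophage genes were counted in the same 27-month comparison. Of all genes tested, 17.2%, 15.1%, 9.21% and 3.27% were called higher in tibialis anterior, gastrocnemius, soleus and diaphragm. The shares called lower were 10.4%, 7.76%, 5.78% and 4.25%. All list counts below stand beside these shares, and small counts near them are no result about a list. A scarce gene could pass the count filter through the age at which it was high. Of 13 tested resident macrophage genes, 11 rose in tibialis anterior, 10 in gastrocnemius, 3 in soleus and 1 in diaphragm, with 0 lower and median changes of 1.46, 0.90, 0.50 and 0.41. Clec10a, a lectin of resident macrophages, rose by 1.64 ± 0.16 in tibialis anterior, 1.00 ± 0.13 in gastrocnemius and 0.84 ± 0.12 in soleus. Of 10 lipid-associated macrophage genes, 8, 5, 2 and 1 rose in the same order of muscles, and 1 fell, in soleus: Spp1, which encodes osteopontin and was singled out after its values were seen (-0.98 ± 0.22, against a rise of 1.45 ± 0.42 in tibialis anterior). Gpnmb, a transmembrane glycoprotein of lipid-laden macrophages, went furthest, from a median of 14.0 to 184.9 CPM in tibialis anterior (3.52 ± 0.29) and from 11.2 to 102.8 CPM in gastrocnemius (2.85 ± 0.28). In diaphragm it rose by 1.17 ± 0.20, and in soleus it differed by 0.37 ± 0.15, under 1.5-fold. Which cells of the muscle carried Gpnmb was not tested. Apoe rose by 1.10 ± 0.11, 0.80 ± 0.15 and 0.78 ± 0.12 in tibialis anterior, gastrocnemius and soleus.

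Phagocytic and Fc receptors rose in 13 of 16 tested genes in tibialis anterior, 12 of 17 in gastrocnemius, 5 of 17 in soleus and 2 of 17 in diaphragm, and 1, Ncf1, a subunit of the phagocyte oxidase chosen here after its values were seen, fell in each limb muscle (-0.78 in tibialis anterior). Fcgr2b, the inhibitory Fc receptor, was called in all 4 muscles, by 2.36 ± 0.28 in tibialis anterior, 2.01 ± 0.20 in gastrocnemius, 1.06 ± 0.19 in soleus and 0.74 ± 0.23 in diaphragm. Of 14 growth and lineage factors 8, 5, 5 and 0 rose in tibialis anterior, gastrocnemius, soleus and diaphragm, and 2, 1, 0 and 0 fell. Irf8, a factor of monocyte development, rose by 1.82 ± 0.27 in tibialis anterior and differed by 0.03 ± 0.18 in diaphragm. Tfec, a relative of Mitf found in myeloid cells, rose by 1.45 ± 0.24 in tibialis anterior and by 1.40 ± 0.21 in gastrocnemius. Of the cytokine and activation genes 6 of 8 rose in tibialis anterior, 5 of 8 in gastrocnemius, 4 of 9 in soleus and 0 of 9 in diaphragm, where 4 had an unadjusted p under 0.05. Il1b and Il18, cytokines of activated macrophages, rose by 1.75 ± 0.29 and 1.42 ± 0.30 in tibialis anterior. Nos2, the inducible nitric oxide synthase, was called lower in gastrocnemius (-0.71 ± 0.13) and diaphragm (-0.64 ± 0.12), and Tnf differed by -0.56 to -0.02 without a call in any muscle, both singled out after their values were seen. Of 7 monocyte genes, 2 were called higher in tibialis anterior, 1 in gastrocnemius and 0 in soleus and diaphragm by limma-voom, where 2 and 1 had an unadjusted p under 0.05. The medians of this list were 0.50, 0.47, 0.07 and 0.17, and Cx3cr1, the fractalkine receptor, rose by 1.16 ± 0.31 in tibialis anterior.

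**Figure D5:**
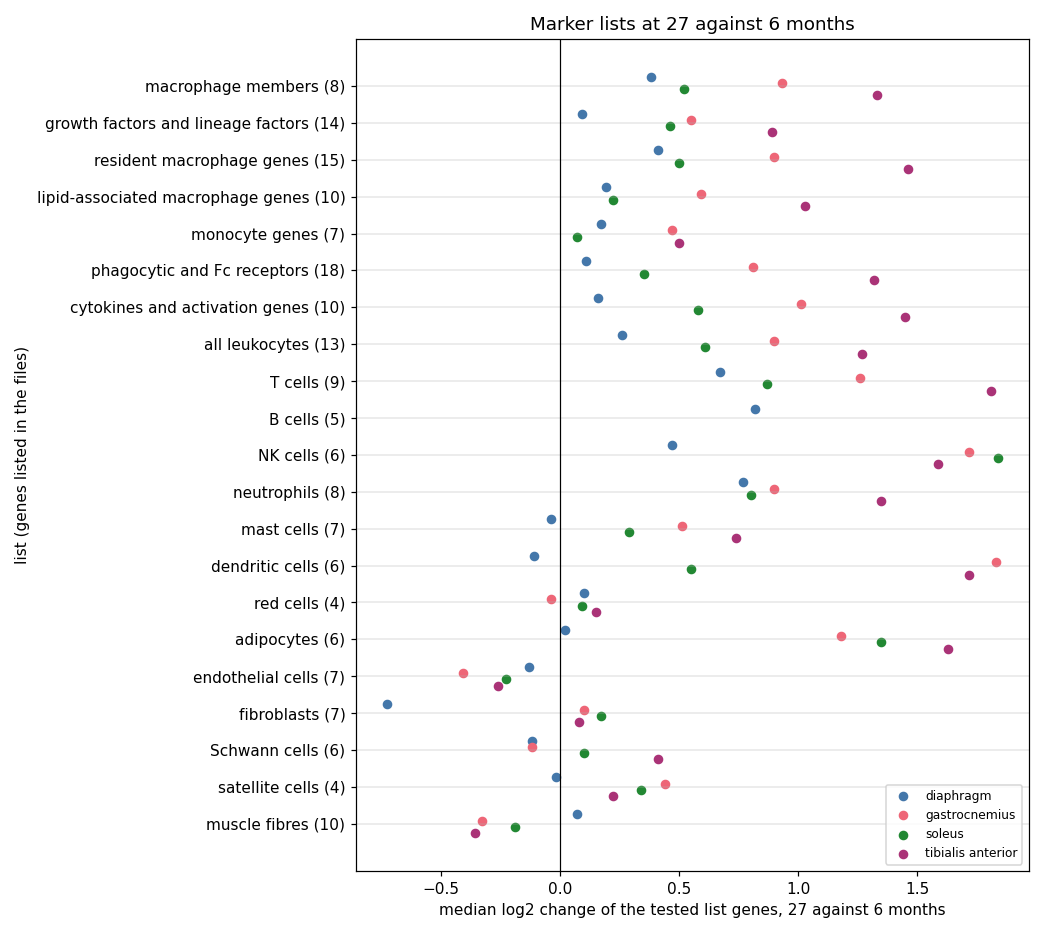
Median log2 change from 6 to 27 months of the tested genes of 21 lists, by muscle (colours), with the number of listed genes in brackets. The 8 markers head the plot, and red cells lay close to 0 in all 4 muscles. In tibialis anterior T cells, dendritic cells, adipocytes and NK cells lay further to the right than the markers. Resident macrophage, cytokine and neutrophil genes also lay to their right there, by less.

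Markers of other cells moved in the same samples, and their part in the changes above was not tested. Of all genes tested, 17.2%, 15.1%, 9.21% and 3.27% were called higher in tibialis anterior, gastrocnemius, soleus and diaphragm. Only genes past the count filter were tested, and a scarce gene could pass through the age at which it was high. High fractions among few tested genes could thus be partly set by the filter. Found in the counts were 9 T cell, 6 NK cell, 6 dendritic cell and 8 neutrophil genes. Of 5 tested T cell genes 5 rose in tibialis anterior, 4 of 5 in gastrocnemius, 3 of 6 in soleus and 3 of 8 in diaphragm, while 1, Cd5, fell in soleus (-0.73 ± 0.23). The summed level of the 9 T cell genes found was 2.37 to 4.61 CPM at 6 months and 11.9 to 46.1 CPM at 27 months in tibialis anterior. Most of that sum at 27 months was 1 gene singled out after its values were seen, Cd28, a costimulatory receptor, whose median went from 1.95 to 25.3 CPM, while the medians of Cd2 and Lck stayed at 0.781 and 0.612 CPM. Cd2 and Lck, both of T cells, were called in all 4 muscles. NK cell genes rose in 5 of 5, 4 of 4, 4 of 4 and 1 of 5 tested in tibialis anterior, gastrocnemius, soleus and diaphragm, and dendritic cell genes in 4 of 5, 4 of 5, 1 of 5 and 0 of 4. Of the neutrophil list, whose cells also carry Itgam, 2 of 2, 2 of 2, 1 of 4 and 3 of 4 tested genes rose in the same order. Its summed level at 27 months was 1.09 to 7.84 CPM in tibialis anterior and 4.02 to 7.92 CPM in diaphragm, against 0.56 to 1.26 and 2.16 to 8.21 CPM at 6 months. The B cell list could be tested in diaphragm alone, where 1 of 5 genes rose, and its summed level was at most 0.96 CPM in the limb muscles at either age. Mast cell genes rose in 4 of 6 in tibialis anterior, 3 of 6 in gastrocnemius, 1 of 6 in soleus and 0 of 6 in diaphragm. In soleus and diaphragm the mast cell counts were near the shares of all genes called higher.

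Genes shared by all leukocytes rose in 12 of 13 in tibialis anterior and in gastrocnemius, 7 of 13 in soleus and 1 of 13 in diaphragm. The red cell list had 0 of 4 genes called in any muscle by limma-voom, with unadjusted p-values under 0.05 for 0, 0, 0 and 0 of them in diaphragm, gastrocnemius, soleus and tibialis anterior, and with a summed level of 205.9 to 345.0 CPM at 6 months and 249.7 to 469.8 CPM at 27 months in tibialis anterior. With this level as a covariate, 8 markers in tibialis anterior, 8 in gastrocnemius, 2 in soleus and 0 in diaphragm were called at 27 months. Adipocyte genes rose in 5 of 6 in each limb muscle and 0 of 6 in diaphragm, Adipoq by 2.01 ± 0.20 in tibialis anterior and by 1.49 ± 0.18 in soleus. In the diaphragm lists with 0 genes called higher by limma-voom, unadjusted p-values under 0.05 were held by 5 of the growth and lineage factors, 0 of the dendritic cell, 0 of the mast cell and 0 of the adipocyte genes. Fibre transcripts took a smaller share of the library in old tibialis anterior, where the 10 muscle fibre genes summed to 223617.4 to 250739.4 CPM at 6 months and 104436.9 to 219193.6 CPM at 27 months. Their median sum was also lower at 27 than at 6 months in gastrocnemius (159150.6 against 221213.5 CPM) and in soleus (81464.8 against 105050.8 CPM). In soleus the sums overlapped, with 96307.5 to 113813.9 CPM at 6 months and 50334.6 to 112850.2 CPM at 27 months. A sum is carried by its most abundant genes. Of the 10 fibre genes, 0, 0, 3 and 1 were called higher in tibialis anterior, gastrocnemius, soleus and diaphragm, and 3, 2, 0 and 0 lower. In diaphragm they summed to 99237.4 to 129322.2 and 99344.0 to 142278.8 CPM, with no such fall. Called lower were 4.25%, 7.76%, 5.78% and 10.4% of all genes tested in diaphragm, gastrocnemius, soleus and tibialis anterior. Of the endothelial list, 1 of 7 genes, Kdr, was called lower in each limb muscle, near these shares, and 0 in diaphragm. The medians of this list were -0.13, -0.41, -0.23 and -0.26 in diaphragm, gastrocnemius, soleus and tibialis anterior. An unadjusted p under 0.05, in either direction, was held by 5, 7, 4 and 6 of the 7 genes. Of the fibroblast list 4 of 7 fell in diaphragm, 2 in gastrocnemius, 2 in soleus and 0 in tibialis anterior. Col1a1, a chain of type I collagen, fell by -1.51 ± 0.17, -1.89 ± 0.19 and -1.17 ± 0.18 in the first 3 of these and differed by -0.55 ± 0.21 in tibialis anterior. Pi16, a fibroblast gene singled out after its values were seen, rose by 1.32 ± 0.14 in tibialis anterior and by 0.71 ± 0.14 in gastrocnemius. Schwann and satellite cell genes were called in 2 of 6 and 1 of 4 higher, and 0 of 6 and 1 of 4 lower, in tibialis anterior.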

How the data were processed

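Total RNA of 325 rat muscles, stored in RNAlater, had been sequenced as strand-specific libraries after removal of ribosomal RNA. The authors deposited raw counts per gene for each library, made with the ArrayStudio pipeline on the rat B6.0 reference and an in-house RefSeq gene model (pipeline version and counting settings not given in the sources used here). Of 17870 gene lines, 494 symbols stood on several lines and were summed, leaving 17315 symbols, and each of the 8 markers stood on 1 line. No 2 libraries were identical. Total counts per library ran from 17.6 to 85.3 M, and the lowest count of any marker was 6, for Aif1.

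Counts were fitted with limma-voom (limma 3.58.1, R 4.3.3) after TMM scaling (edgeR 4.0.16) within each muscle, with genes kept by filterByExpr (minimum count 10, minimum total 15). Each later age was compared with 6 months, and 27 with 24 months. A second fit of all 28 groups gave the differences between muscles. Tests were two-sided, with Benjamini-Hochberg adjustment over all genes tested. For log2 CPM a prior count of 0.5 was used. Trends were chosen by BIC, with a margin of 6 over the constant and of 2 for the logistic over the linear form. The comparison of 27 with 6 months by limma-voom, edgeR and DESeq2 was tested on simulated counts modelled on tibialis anterior. The choice of trend was tested on simulated constant, linear, mid and late courses. The other fits and checks were not tested on simulated data. edgeR's quasi-likelihood test, DESeq2 1.42.0, RLE and total-count scaling, no filter, Bonferroni adjustment, a 2-fold threshold, quality weights, equal group sizes, a red cell covariate, a replicate block and left-out libraries were alternatives. The left-out libraries of 18, 21 and 24 months, and both alternatives of the last step, were chosen after seeing the data.

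The markers and gene lists were chosen with earlier results of these data known. Named genes were the 8 markers, up to 2 genes of each list called in the most muscles at 27 months (ties by mean size of change), the 10 genes most like the mean of the markers and the 1 most like each, and paralogs of Lyz2. Replicate numbers were not used to pair libraries. The values of 1 listed gene are not reported here.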

Additional observations from a re-analysis of the deposited data

Results flagged for a closer look

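In gastrocnemius, 24 combinations of a marker and a group of at most 10 libraries were checked for a library standing apart from the rest, and 3 did, where chance alone gives about 1 in 20. Cd68 in replicate 0 of 21 months was at 2.69 log2 CPM, and the nearest library was at 3.22. Csf1r in replicate 7 of 24 months was at 6.22, with the nearest at 5.71, and Aif1 in replicate 2 of 24 months was at -0.05, with the nearest at 0.50.

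The change from 6 to 27 months differed between muscles in 20 tests of the difference itself (limma-voom, adjusted p under 0.05 and over 1.5-fold). For tibialis anterior minus diaphragm the log2 differences were 0.97 for Cd68, 0.89 for Cd163, 1.09 for Mrc1, 0.89 for Csf1r, 1.06 for Adgre1, 0.69 for Aif1 and 0.86 for Lyz2. For tibialis anterior minus soleus they were 0.93 for Cd68, 0.75 for Cd163, 0.82 for Mrc1, 0.76 for Csf1r, 0.85 for Adgre1, 0.78 for Itgam and 1.12 for Lyz2. For tibialis anterior minus gastrocnemius the value was 0.68 for Cd68. For gastrocnemius minus diaphragm they were 0.88 for Mrc1, 0.63 for Adgre1 and 0.72 for Aif1, and for soleus minus gastrocnemius -0.61 for Mrc1 and -0.66 for Lyz2.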

How the results depend on the processing

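All counts are markers of 8. Of the recomputed counts 381 stayed within 1.5 times the count reported and 79 did not. With 1 library of 6 or 27 months left out, the count at 27 months was 8 to 8 in tibialis anterior and in gastrocnemius, 1 to 3 in soleus (2 reported) and 0 to 1 in diaphragm (1 reported). Without the library farthest from its group, it was 1 in tibialis anterior at 18 months (4), 0 there at 21 months (2), 2 in gastrocnemius at 21 months (0) and 1 in diaphragm at 24 months (0).

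With a 2-fold threshold the counts were 0 in diaphragm, gastrocnemius and tibialis anterior at 18 months, 0 in tibialis anterior at 21 months, 0 in gastrocnemius and tibialis anterior at 24 months, and 0, 2 and 0 in diaphragm, gastrocnemius and soleus at 27 months, and age-related markers were 2 in gastrocnemius and 0 in soleus. With Bonferroni adjustment they were 0, 2 and 0 in diaphragm, gastrocnemius and tibialis anterior at 18 months, 0 in tibialis anterior at 21 months, and 0 and 1 in diaphragm and soleus at 27 months. Differences in change were then 1 (gastrocnemius minus diaphragm), 0 (soleus minus gastrocnemius), 3 (tibialis anterior minus diaphragm), 0 (minus gastrocnemius) and 1 (minus soleus), and level differences 2 (gastrocnemius minus diaphragm) and 4 (tibialis anterior minus gastrocnemius). These stricter rules call fewer genes by construction.

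Both edgeR and DESeq2 gave 2 in diaphragm at 18 months, 1 in gastrocnemius and 5 in tibialis anterior at 21, 1 in diaphragm at 24 and 1 in soleus at 27 months, and edgeR gave 0 for the last step in gastrocnemius. With 9 libraries a group the counts were 0 in diaphragm and 2 in tibialis anterior at 18 months, 1 in gastrocnemius and 6 in tibialis anterior at 21, 1 in diaphragm and 1 in soleus at 24 and 4 in soleus at 27 months, with 2 age-related in soleus. Quality weights gave 1 in tibialis anterior at 18 months, 1 in gastrocnemius and 0 in tibialis anterior at 21, 1 in diaphragm at 24, and 0 in diaphragm and 1 in soleus at 27 months. The red cell covariate gave 7 in tibialis anterior at 18 and 0 in diaphragm at 27 months, and leaving out libraries of another number series gave 4 in tibialis anterior at 21 months.

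Total-count scaling, which moved the median of all genes at 27 months to 0.0433, 0.321, 0.164 and 0.337 in diaphragm, gastrocnemius, soleus and tibialis anterior, gave 3 in gastrocnemius and 6 in tibialis anterior at 21 months, 1 in soleus at 24, 7 in soleus at 27 and 3 for the last step in tibialis anterior. It gave 6 for the difference in change of gastrocnemius minus diaphragm, 7 for the level of soleus minus gastrocnemius and 5 age-related in soleus. It also turned the sign of 4 small differences, none past the threshold: the level of Aif1 in gastrocnemius minus diaphragm (-0.33) and soleus minus gastrocnemius (0.21), the last step of Adgre1 in soleus (0.03) and the difference in change of Itgam in soleus minus diaphragm (0.06). edgeR turned the difference in change of Cd68 in soleus minus diaphragm (-0.03) and the last step of Itgam in diaphragm (0.06). Apart from the stricter rules and left-out libraries, the cause of these shifts was not tested.

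With the replicate number as a replicate block, 1 marker was called in gastrocnemius and 4 in tibialis anterior at 21 months and 1 in diaphragm at 24 months, and no other count moved by over 1.5 times. Same-numbered libraries of 1 age correlated above 0.1 in 60 of 83 pairs of tibialis anterior and diaphragm (median 0.20), 59 of 84 of tibialis anterior and soleus (0.181) and 46 of 83 of soleus and diaphragm (0.131), where other numbers had medians of -0.0266, -0.0125 and -0.0173, a hint from the data and not from the design. Gastrocnemius and diaphragm had 26 of 72 (0.0341). Not every pair was above 0.1 and the labels name no animal, so the numbers were not taken to pair libraries. The depth of these libraries limits Aif1 most.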
